A study of Homo sapiens with 11 samples.

Results

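The regions described are the MINA intervals of WT cells that were also found in KO cells, where the protein that the antibody is raised against is absent per the labels. MINA is the antibody's name for mdig, also called MINA53 or RIOX2. Members were chosen by the positions of the MINA intervals alone. A WT interval on chromosomes 1 to 22 or X was taken when a KO MINA interval overlapped it by at least 1 bp. Of 16353 WT MINA intervals 6353 (38.8%) were members, out of 229591 intervals in all 10 lists of the series. By this rule the members hold the WT signal that was not separated from what the antibody returned without its target. The other 10000 WT MINA intervals, which no KO interval overlapped, are called WT-only MINA and serve as the comparison.

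Chromatin immunoprecipitation and sequencing was done in MDA-MB-231, an established human line of triple-negative breast cancer, as WT cells with normal mdig protein and as KO cells lacking it. Both came from CRISPR-Cas9 work and were kept in the same DMEM/F-12 medium with serum, antibiotics and Blasticidin. Each of 5 antibodies (H3K4me3, H3K36me3, H4K20me3, H3K9me3 and MINA) gave 1 WT and 1 KO library. The labels do not say whether KO is 1 clone or a pool, and with 1 library per antibody and genotype no difference could be set against replicate error, so the comparisons carry no test. The files hold no counts, sequencing depth is unknown, and the number and width of called intervals move with depth and with enrichment. Confidence intervals below are 95% Wilson intervals for shares and order-statistic intervals for medians. They cover counting error over intervals only. Members are not replicates, since neighbours can share the same H3K4me3 or H3K36me3 interval.

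Mdig belongs to the oxygenases with a JmjC domain, a fold shared with histone lysine demethylases. H3K4me3 is laid down around the starts of active genes, and H3K36me3 follows RNA polymerase into the bodies of transcribed genes. H4K20me3 is made by the SUV420H enzymes and is known for silent heterochromatin, where it commonly lies beside H3K9me3. All coordinates are 1-based on the build hg19. An annotation or sequence of that build was not used here, so regions are given by position and marks and no gene is assigned.

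The members were short for the most part, with a long tail. Their width ran from 0.4 kb to 132.8 kb with a median of 4.0 kb and quartiles of 2.4 and 9.0 kb. WT-only MINA intervals had a higher median of 5.2 kb (quartiles 2.8 and 9.0 kb) and a lower maximum of 68.6 kb. Together the members spanned 50.4 Mb, of which 26.7 Mb (53.0%) lay under a KO MINA interval. The overlap was complete for 19.6% of the members, and the median member had 66.7% of its length under KO MINA. A single KO interval lay on 5996 members, and 357 members held between 2 and 6 of them. Of the 7859 KO MINA intervals 6532 lay on members and 1327 on no WT interval. Since the MINA overlap is what the members were selected on, these values are a description.

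At the edge of the rule, 16 members overlapped KO MINA by the smallest possible 200 bp, the step of the file's grid. The widest of these was chr22:38024801-38040000, with 15.2 kb in WT. On the other side, 15 WT-only intervals touched a KO interval without overlapping it, such as chr1:1501601-1507400 with 5.8 kb, and 163 lay within 1 kb of one.

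Where a WT and a KO MINA interval paired one to one (5577 pairs), the KO interval was narrower in 64.8% and wider in 30.2%. The median KO over WT width depended on the WT width. It was 1.25 for members under 2 kb (1055 pairs), 0.90 at 2 to 4 kb, 0.652 at 4 to 8 kb, 0.467 at 8 to 16 kb and 0.347 at 16 kb and above (566 pairs). The wide members were thus covered in part by a narrower KO interval, while among the smallest ones the median KO interval was the wider one (quartiles of the ratio 0.889 and 1.8). A fall of this kind is in part built into any ratio that is sorted by its own denominator.

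The share of WT MINA intervals that were members differed along the genome. Along 11 stretches of 8 chromosomes (4, 5, 6, 7, 9, 14, 15 and X), 22.8% of the 2-Mb bins, the KO over WT covered length of H3K4me3 was higher than elsewhere, with a ratio of 1.05 against 0.802. These are called raised stretches. They held 22.9% of the members, close to their share of the bins, but 7.24% of the WT-only MINA intervals, so that 66.7% of the WT MINA intervals inside them were members and 34.6% of those outside. By chromosome the share of WT MINA intervals that were members ran from 21.4% on chromosome 22 and 25% on chromosome 21 to 64.1% on chromosome 9 and 65.7% on chromosome 15. All 182 members of chromosome 15 and 93.9% of the 345 on chromosome 9 lay in a raised stretch. The part that these stretches play in the results was not tested, and each main value is therefore also given outside them.

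H3K4me3 was present on nearly all members in both genotypes. In WT 5969 members (94.0%, 93.3% to 94.5%) overlapped an H3K4me3 interval, and in KO 5941 (93.5%, 92.9% to 94.1%). Both genotypes had it on 5915 members (93.1%), WT alone on 54 (0.85%) and KO alone on 26 (0.409%), while 358 (5.64%) had it in neither. Over all WT MINA intervals the share found in WT only was 3.93% and that found in KO only 0.862%. WT-only MINA intervals had H3K4me3 in 57.5% in WT and 52.8% in KO, and 41.3% of them had none. Outside the raised stretches the members stood at 94.8% and 94.2%, and WT-only MINA at 56.8% and 51.7%.

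**Figure D1:**
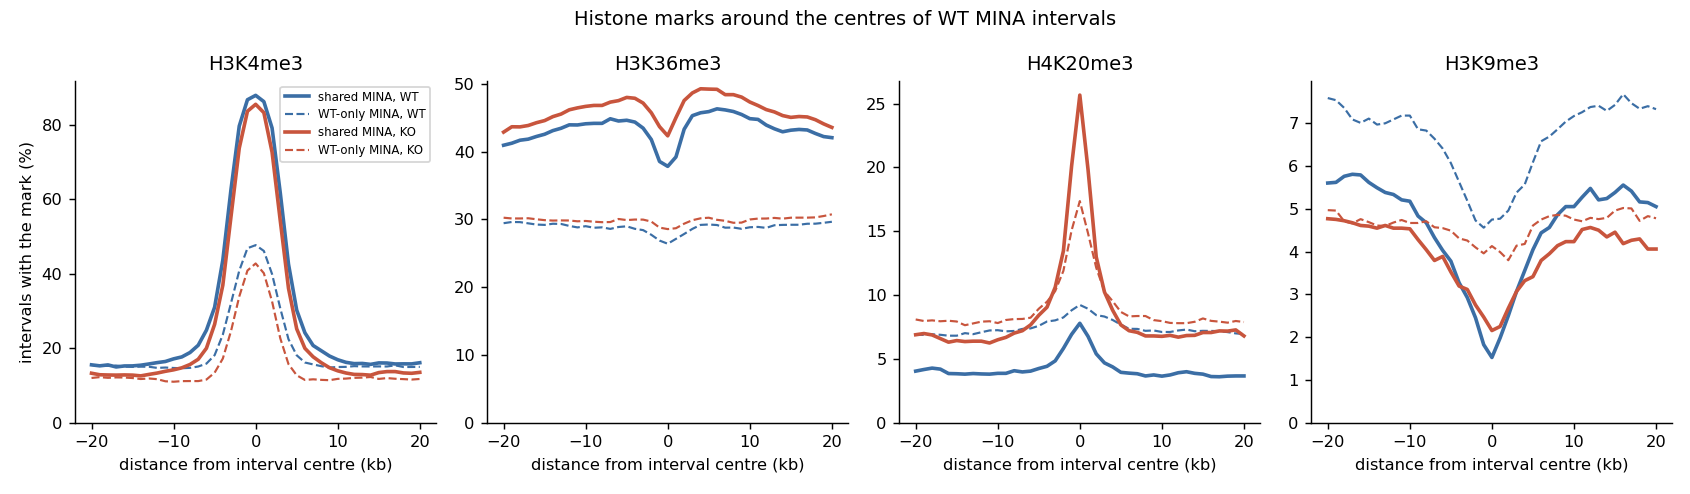
Share of intervals (%) whose position at a given distance from the interval centre (kb, along the reference strand) lies in an H3K4me3, H3K36me3, H4K20me3 or H3K9me3 interval. Solid lines are the 6353 shared MINA intervals and dashed lines the 10000 WT-only MINA intervals, blue for marks of WT and red for marks of KO. H3K4me3 of WT lay over 87.9% of the centres of shared intervals, H3K36me3 dipped there to 37.8%, and H4K20me3 of KO peaked there at 25.7%.

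The H3K4me3 intervals on members were the wide ones of their list. The 5894 WT intervals on members (30.7% of the list) had a median width of 7.8 kb with quartiles of 6.0 and 10.8 kb and a maximum of 104 kb. Those on WT-only MINA alone had a median of 6.4 kb and those on no WT MINA interval 3.0 kb. In KO the same order held, with 7.0, 5.6 and 2.8 kb. A wider interval meets a MINA interval more readily, and those on both classes were counted with the members. This order is therefore in part built into the sorting. A member commonly lay wholly inside the mark, in 64.3% in WT and 58.4% in KO, against 28.8% and 23.6% of the WT-only MINA intervals. Of the H3K4me3 intervals on members 98.6% were found again in KO, against 91.2% on WT-only MINA and 70.6% on no MINA. Much of this went with width, since at 6 to 8 kb the shares were 98.8%, 97.3% and 96.1%.

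Most H3K4me3 intervals on members were narrower in KO by a small factor, as were those of the genome as a whole. Over 5400 one-to-one pairs the median width was 7.6 kb in WT and 6.8 kb in KO, and the median of the KO over WT ratios was 0.913 (0.907 to 0.917, quartiles 0.796 and 1.03). The KO interval was narrower in 66.4% of the pairs and wider in 27.7%, close to the 65.6% and 27.4% of all H3K4me3 pairs of the genome. A difference of 1.5-fold or more was seen in 464 pairs (8.59%) as narrower and in 79 (1.46%) as wider, where all 15690 H3K4me3 pairs of the genome gave 15.6% narrower and 3.89% wider. Before width was taken into account, the members' H3K4me3 therefore crossed this threshold in either direction in a lower share of pairs than the list as a whole. For widening this did not hold at like width, as given below. The members' median ratio of 0.913 stood beside 0.894 for all pairs.

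Because the classes differ in width, the pairs were also compared at like WT width. With all pairs divided into tertiles of WT width at 4.6 and 7.2 kb, the median ratio of members was 1.06 in the lower, 0.957 in the middle and 0.878 in the upper tertile. WT-only MINA gave 0.929, 0.882 and 0.816, and pairs on no MINA interval 0.941, 0.857 and 0.816. Outside the raised stretches the members' medians were 1.00, 0.92 and 0.857, those of WT-only MINA 0.905, 0.871 and 0.808, and those without MINA 0.889, 0.828 and 0.782. In each tertile the members' median lay above those of WT-only MINA and of no MINA. Over all places it lay below that of the 395 pairs on a MINA interval of KO alone, which had 1.21, 1.04 and 0.977. Of these 395 pairs 291 lay inside the raised stretches. Outside the stretches the pairs on KO MINA alone had 1.06, 0.844 and 0.78 (39, 43 and 22 pairs). There the members' median was below theirs in the lower tertile and above it in the middle and upper tertiles. In the upper tertile outside the stretches the 1.5-fold narrowing was seen in 12.98% (11.7% to 14.3%) of member pairs, 21.95% (20.1% to 24.0%) on WT-only MINA and 30.3% (25.7% to 35.4%) without MINA.

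**Figure D2:**
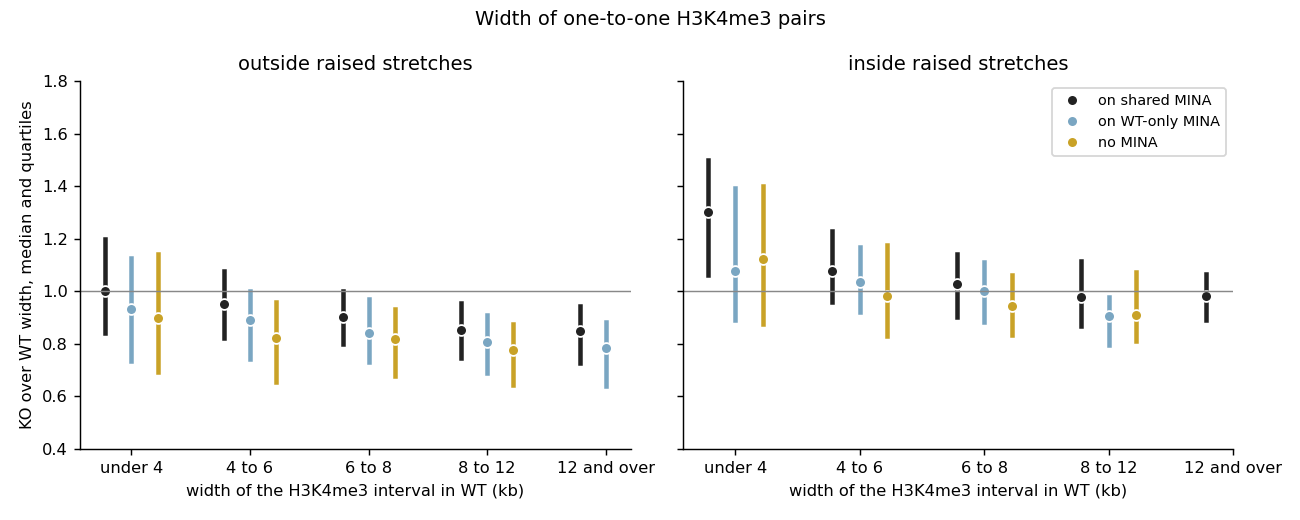
KO over WT width of H3K4me3 intervals that paired one to one, by width in WT (kb), outside (left) and inside (right) the raised stretches. Points are medians and bars quartiles, in black for pairs on shared MINA intervals, blue for WT-only MINA and yellow for no MINA, with classes under 20 pairs left out. The black points lie above the others of the same width class, and outside the stretches they fall with WT width.

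The widths also differed by place on the chromosome. Inside the raised stretches the 1167 member pairs had a median ratio of 1.03, and 5.06% were wider by 1.5-fold. Outside them the 4233 pairs had a median of 0.886, with 0.472% wider and 10.2% narrower by 1.5-fold. The difference is in part fixed by the way the stretches were found, from H3K4me3 length itself. With stretches found from H3K36me3 in place of H3K4me3 the medians were 1.03 inside and 0.893 outside. By chromosome the members' median was below 1 on 20 of 23, lowest on chromosome 19 at 0.845, and it was 1.00 on chromosomes 7 and 9 and 1.11 on chromosome 15.

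Across 4383 members with 1 pair for each of the MINA and H3K4me3 intervals, the Spearman correlation of the MINA and H3K4me3 width ratios was 0.185, and 0.0846 over the 3383 outside the raised stretches. These points share their libraries and, in part, their H3K4me3 intervals. The ranks of the measured ratios were thus weakly related. Without replicates, noise in the called widths cannot be told apart from a lack of relation.

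Single members showed larger shifts. The strongest narrowing was at chr3:69284401-69290200, whose paired H3K4me3 interval measured 4.6 kb in WT and 1.0 kb in KO. At chr17:8103001-8114800 a flanking H3K4me3 interval went from 7.0 kb to 1.8 kb, while 11.0 kb of the member was covered by the mark in WT and 9.8 kb in KO, so most of that member kept it. At chr3:75834001-75834800 the widths were 5.6 and 1.8 kb, and H4K20me3 covered the whole 0.8 kb of the member in both genotypes. The strongest widening was at chr9:130275801-130285000, from 3.2 kb in WT to 11.2 kb in KO. It was followed by chr7:1114201-1128400 (2.8 and 7.8 kb) and chr9:139794601-139800000 (3.8 and 9.4 kb). The 3 that widened lay inside raised stretches, and the 3 that narrowed lay outside.

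H3K36me3, the mark of transcribed gene bodies, lay on more than 1 in 2 members in WT and on more of them in KO when an overlap of 1 bp counted, and on 41.2% and 45.9% when 50% of the shorter interval had to overlap. It was found on 3805 members (59.9%, 58.7% to 61.1%) in WT and on 4241 (66.8%, 65.6% to 67.9%) in KO. Both genotypes had it on 3597, WT alone on 208 (3.27%) and KO alone on 644 (10.1%), beside 3.04% and 7.14% over all WT MINA intervals. WT-only MINA carried it in 35.5% and 37.8%. It covered 24.1 Mb of the members in WT and 26.3 Mb in KO, which is 1.09 times the WT length, while the whole H3K36me3 list stood at 1.00. WT-only MINA had a length ratio of 1.06. Outside the raised stretches the ratios were 1.05 for members and 1.04 for WT-only MINA, and inside them 1.34 and 1.39.

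The share of members with H3K36me3 was higher in KO on all 23 chromosomes, by the widest margin on chromosome 15 with 31.3% in WT and 57.7% in KO. Inside the raised stretches it was 46.3% in WT and 62.9% in KO, and outside them 63.9% and 67.9%. The mark was found in KO only on 260 of the 1452 members inside (17.9%) and on 384 of the 4901 outside (7.84%), where WT-only MINA gave 11.3% inside and 4.76% outside. The genotypes therefore stood closer to each other outside the stretches than inside.

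H3K36me3 lay beside the members more than over their middle. In WT it covered 37.8% of the member centres, 44.4% and 45.7% of the points 4 kb to the left and right, and 40.9% and 42.1% of those at 20 kb. KO had the same dip on a higher level, with 42.3% at the centre and 47.9% and 49.3% at 4 kb. Within 5 kb of its edges a member had H3K36me3 on 1 side in 49.8% of cases in WT, on both sides in 23.8% and on neither in 26.3%. For WT-only MINA the shares were 25.3%, 20.2% and 54.4%. One-sided H3K36me3 was thus the most frequent arrangement at members and not at WT-only MINA, and in KO it reached 51.4% of the members. The classes were not compared at like H3K4me3 state, which differed between them in WT (94.0% of members and 57.5% of WT-only MINA).

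Wider members met the mark more often. Among those under 2 kb H3K36me3 was found on 32.1% in WT and 44.4% in KO, and among those of 16 kb and above on 80.5% and 83.3%. The distance between the genotypes was thus smallest where the member was widest. The 3 members that gained most H3K36me3 were chr21:46825801-46857000 (no mark in WT, all 31.2 kb in KO), chr17:79933401-79992600 (23.2 kb and 54.0 kb) and chr9:139899401-139942400 (none and 27.0 kb). The 3 that lost most were chr16:88863801-88959400 (57.4 kb in WT, 26.4 kb in KO), chr11:61632601-61661600 (23.2 and 5.4 kb) and chr10:45463601-45481200 (16.0 and 2.8 kb). At the chromosome 21 member H3K4me3 covered 14.6 kb in WT and 6.2 kb in KO.

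H4K20me3 showed the largest difference between the genotypes. It lay on 676 members (10.6%, 9.91% to 11.4%) in WT and on 2185 (34.4%, 33.2% to 35.6%) in KO. WT alone had it on 167 members (2.63%) and KO alone on 1676 (26.4%), where all WT MINA intervals gave 3.76% and 19.1%. WT-only MINA intervals started from a slightly higher share of 12.5% (11.9% to 13.2%) in WT and reached 22.5% in KO. The covered length of the members went from 3.30 Mb in WT to 9.29 Mb in KO, a ratio of 2.81, against 1.504 for WT-only MINA. As a share of length this was 6.56% in WT and 18.4% in KO for members, and 9.68% and 14.6% for WT-only MINA. The higher ratio of the members thus goes in part with their lower share in WT. The whole H4K20me3 list had 2.96 times as many intervals and 2.23 times the length in KO.

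**Figure D3:**
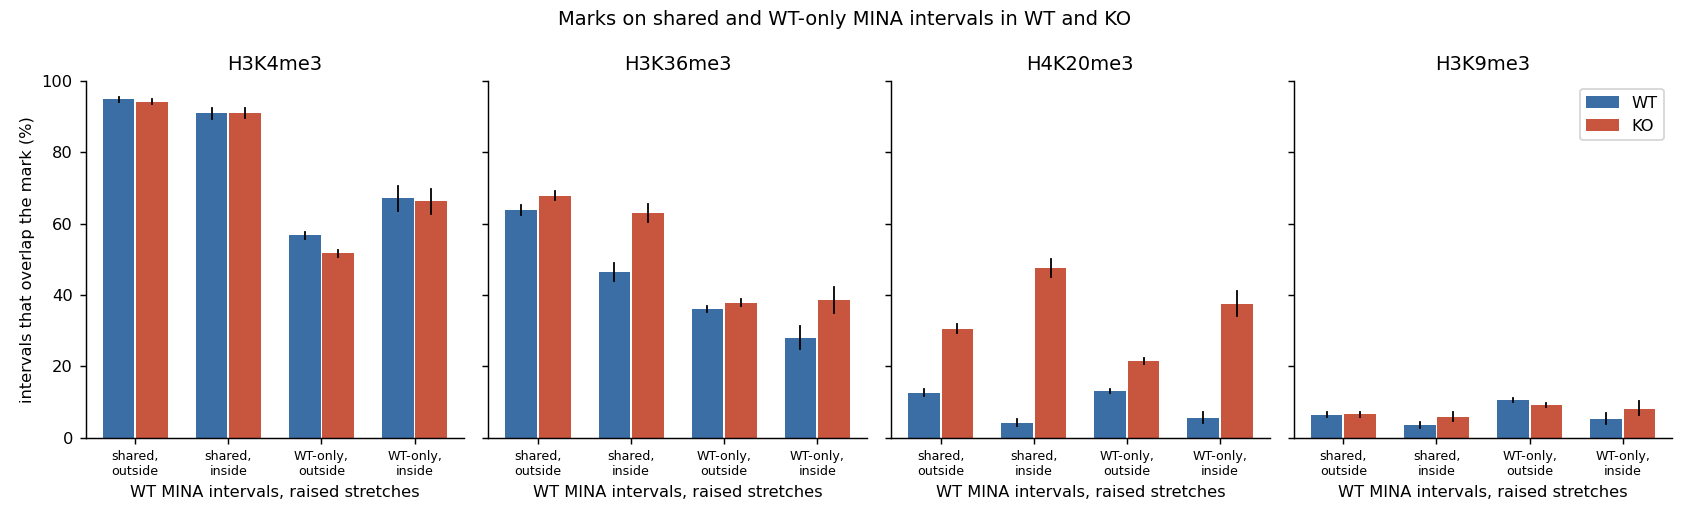
Share of shared and WT-only MINA intervals (%) that overlap an interval of each mark in WT (blue) and KO (red), outside and inside the raised stretches, with 95% Wilson intervals as black lines. The 1452 shared intervals inside the stretches went from 4.06% with H4K20me3 in WT to 47.5% in KO, and the 4901 outside from 12.6% to 30.5%.

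The genotypes differed most in H4K20me3 inside the raised stretches. There 4.06% of the members carried the mark in WT and 47.5% in KO. The covered length went from a small 0.251 Mb in WT to 2.86 Mb in KO, which is 11.4 times that of WT. Outside them the shares were 12.6% and 30.5%, and the covered length 2.11 times that of WT. WT-only MINA intervals had 5.39% and 37.6% inside, and 13.04% and 21.4% outside. Their length ratio was 5.21 inside, from 0.208 Mb in WT, and 1.39 outside. Outside the stretches, members and WT-only MINA were thus alike in WT by share of intervals, and members stood higher in KO. By share of length members had 7.24% in WT and 15.3% in KO there, against 9.91% and 13.7% for WT-only MINA.

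The share was higher in KO on 23 of 23 chromosomes. In KO it ran from 21.2% on chromosome X to 48.5% on chromosome 20, which holds no raised stretch and where 16.5% carried the mark in WT. Chromosome 19 had the highest share in WT with 24.1% and reached 39.9% in KO. The lowest WT shares were 1.89% on chromosome 18 (53 members), 3.19% on chromosome 9 and 3.30% on chromosome 15, and in KO these chromosomes stood at 28.3%, 42.6% and 46.7%.

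**Figure D4:**
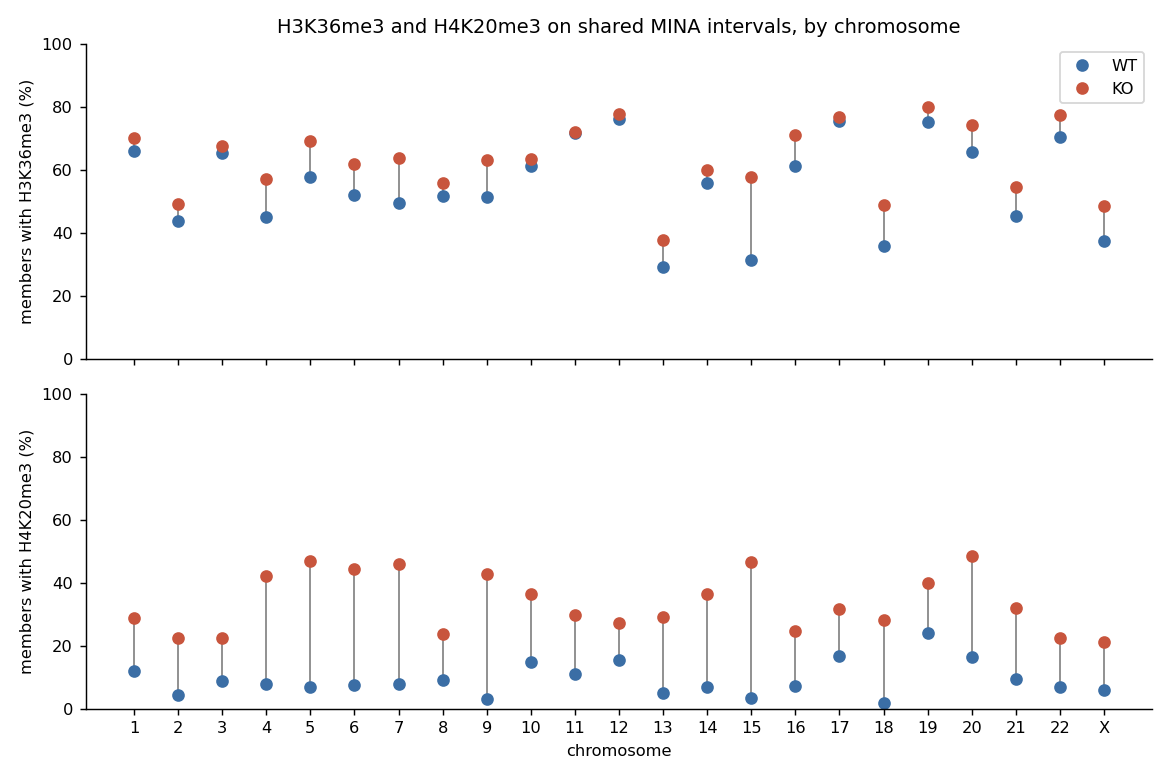
Share of shared MINA intervals (%) that overlap H3K36me3 (top) and H4K20me3 (bottom) in WT (blue) and KO (red), by chromosome, with a grey line joining the genotypes. The red point lies above the blue one for both marks on all 23 chromosomes, with the widest H3K36me3 distance on chromosome 15.

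The H4K20me3 of KO was centred on the members. It covered 25.7% of their centres, 13.5% and 12.99% of the points 2 kb to either side and 6.89% and 6.80% of those at 20 kb. In WT the centre stood at 7.79% and the points at 20 kb at 4.05% and 3.67%. Outside the raised stretches the KO centre reached 21.4% and inside them 40.2%. WT-only MINA had a lower peak of 17.4% above a slightly higher level of 8.09% at 20 kb. The median width was 3.6 kb over the 2220 H4K20me3 intervals of KO on members and 6.8 kb over the 685 of WT. The whole lists had medians of 4.0 kb in KO and 6.0 kb in WT, so the narrower intervals of KO were not limited to members.

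Within the members, H4K20me3 of KO covered more of the length under KO MINA than of the rest. In the 26.7 Mb of member length under a KO MINA interval it covered 6.67% in WT and 24.3% in KO. In the remaining 23.7 Mb it covered 6.44% and 11.9%. H3K4me3 covered 79.8% and 76.6% of the first part and 56.8% and 47.1% of the second, and H3K36me3 48.0% and 53.4% against 47.9% and 50.8%. Over all places the parts under KO MINA had the higher H4K20me3 share in KO and the smaller difference in H3K4me3. In WT their H4K20me3 share was close to that of the rest. KO MINA covered a larger share of the member centres than of the member length, so the rest lay more toward the edges. H4K20me3 of KO was itself centred on the members. The parts were not compared at like distance from the centre. Whether they differ beyond their position within the member was therefore not tested. Outside the raised stretches H4K20me3 went from 7.68% to 20.1% under KO MINA and from 6.82% to 10.5% in the rest, and inside them from 3.18% to 38.6% and from 2.71% to 24.7%. Inside, the H3K4me3 of both parts was nearly the same in WT and KO, with 70.8% and 71.4% under KO MINA and 50.6% in both genotypes in the rest.

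The members with H4K20me3 in KO only had much the same other marks as all members. Of these 1676 members 94.99% had H3K4me3 in KO (93.5% of all members), 65.3% had H3K36me3 in KO (66.8%), and 9.25% had H3K9me3 in either genotype (7.48%). H3K9me3 itself lay on 361 members (5.68%) in WT and 403 (6.34%) in KO, beside 8.43% and 7.999% of all WT MINA intervals. WT alone had it on 1.13% of the members and KO alone on 1.79%, where all WT MINA intervals gave 2.43% and 2.00%. WT-only MINA stood at 10.2% and 9.05%. The 475 members with H3K9me3 in either genotype had H4K20me3 in 46.5% in WT and 75.2% in KO, and the 5878 without it in 7.74% and 31.1%. H4K20me3 was thus more frequent on members with H3K9me3 in both genotypes, but most members with H4K20me3 in KO had no H3K9me3.

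To set the members against H3K4me3 regions of like width, WT H3K4me3 intervals were sorted by the MINA interval on them. Outside the raised stretches and at 6 to 8 kb, 12.8% of those on members carried H4K20me3 in WT and 30.2% (27.7% to 32.7%) in KO. On WT-only MINA the shares were 12.4% and 26.1% (23.7% to 28.6%), and without MINA 11.2% and 16.4% (13.5% to 19.8%). At 4 to 6 kb the members had 23.1% (20.4% to 26.2%) in KO, not above the 24.9% (22.5% to 27.5%) of WT-only MINA, and both lay above the 16.8% without MINA. At 8 to 12 kb the order was 33.3%, 26.3% and 22.2%, where those without MINA already stood at 21.2% in WT. The 111 WT H3K4me3 intervals outside the stretches that met a MINA interval of KO alone carried H4K20me3 in 12.6% in WT and 24.3% (17.3% to 33.1%) in KO. Under 4 kb the KO shares were 21.0%, 27.3% and 10.3%, with members below WT-only MINA. At 12 kb and above they were 38.5%, 32.5% and 37.0%, the last from 10 of 27 intervals with a confidence interval of 21.5% to 55.8%. In KO, members thus stood above WT-only MINA from 6 kb upward and not below that width. The confidence intervals of these classes overlapped at 6 to 8 kb. They also overlapped at 12 kb and above (35.6% to 41.5% for members, 28.2% to 37.2% for WT-only MINA). Members stood above H3K4me3 without MINA up to 12 kb in KO. At 8 to 12 kb these classes did not start alike, with 12.6% of those on members in WT against 21.2%.

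**Figure D5:**
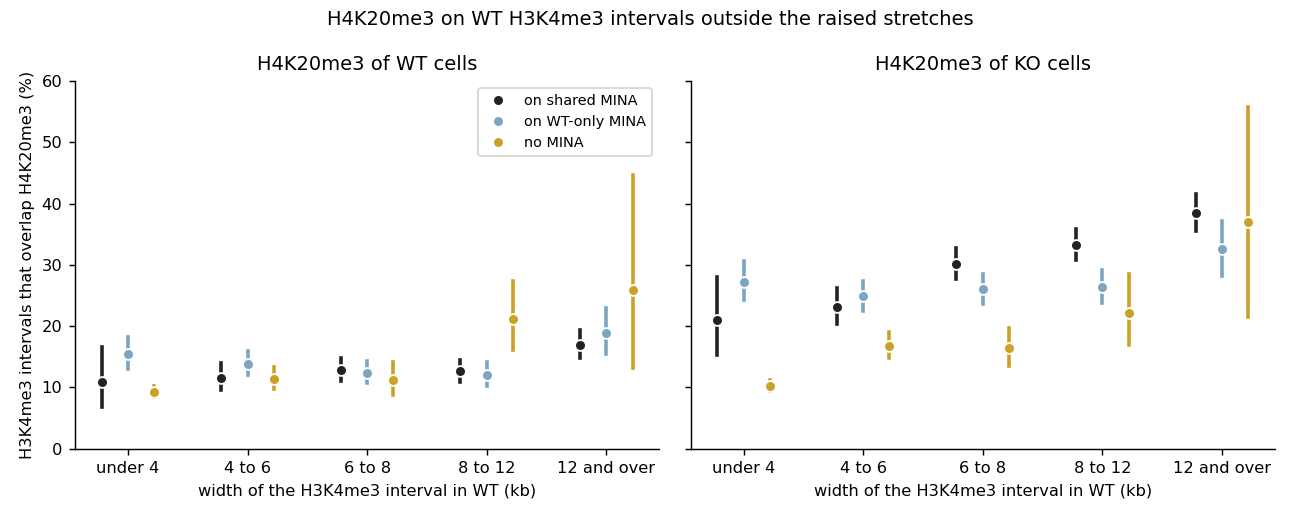
Share of WT H3K4me3 intervals (%) that overlap H4K20me3 of WT (left) and KO (right) outside the raised stretches, by their width in WT (kb) and by the MINA interval on them (black for shared, blue for WT-only, yellow for no MINA), with 95% Wilson intervals. In WT the classes lie close together at 4 to 8 kb, and in KO at 6 to 8 kb they stand at 30.2%, 26.1% and 16.4%.

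The 5 members that gained most H4K20me3 included 4 on chromosome 20 outside the raised stretches. The other was chr6:37508401-37556000, inside a stretch and wholly under KO MINA, where no mark was found in WT and 46.4 of 47.6 kb carried H4K20me3 in KO. On chromosome 20, chr20:61833001-61910600 went from none to 46.2 kb, chr20:62022801-62068000 from none to 44.6 kb, chr20:62075001-62123000 from none to 43.6 kb and chr20:61141401-61209800 from 25.6 to 66.6 kb. These lie within less than 1 Mb of each other, so they are not independent of one another. The largest losses were at chr7:100129001-100261800 (86.8 kb in WT, none in KO), chr3:52062401-52108800 (41.4 and 11.0 kb) and chr4:8535201-8558000 (its whole 22.8 kb and none).

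Taking the marks of each member as a set, H3K4me3 with H3K36me3 and no other mark was the most frequent in WT (3159 members, 49.7%), followed by H3K4me3 alone (2057, 32.4%). In KO these stood at 2593 (40.8%) and 1227 (19.3%), and H3K4me3 with H3K36me3 and H4K20me3 went from 318 (5.01%) to 1236 (19.5%). The same set in both genotypes was found for 3784 members (59.6%). Among the changes, 816 members added H4K20me3 to H3K4me3 and H3K36me3, 417 added it to H3K4me3 alone, and 363 added H3K36me3 to H3K4me3 alone. The sets that lost a mark were smaller, with 126 members going from H3K4me3 and H3K36me3 to H3K4me3 and 93 losing H4K20me3 from the set of 3.

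The widest members were clusters of marks more than single peaks. The widest, chr7:100129001-100261800 with 132.8 kb, held 3.4 kb of KO MINA, and H3K4me3 covered 71.6 kb of it in WT and 50.2 kb in KO. At chr19:1376401-1498400 (122 kb) 6 KO MINA intervals covered 55.4 kb, and H3K4me3 covered 107.6 kb in WT and 91.6 kb in KO. At chr11:749801-857200 (107.4 kb) KO MINA covered 71.2 kb, H3K36me3 94.2 kb in WT and 100.4 kb in KO, and neither heterochromatin mark was found. At chr16:88863801-88959400 (95.6 kb) the loss of H3K36me3 given above stood beside H4K20me3 that went from none to 33.6 kb. At chr19:879601-967400 (87.8 kb) the widest H3K4me3 interval measured 58.4 kb in WT and 32.0 kb in KO.

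The 358 members without H3K4me3 in either genotype differed from the rest. Their median width was 8.2 kb (quartiles 5.0 and 15.4 kb) against 3.8 kb for the 5915 with the mark in both. H3K36me3 lay on 43.6% of them in WT and 46.4% in KO, H4K20me3 on 12.3% and 28.8%, and H3K9me3 on 18.2% and 19.0%, which is above the 4.75% and 5.39% of the members with H3K4me3 in both. Of the 5 widest, chr16:88531801-88583600 (51.8 kb) held only 2.4 kb of H3K9me3 in each genotype and chr17:79400001-79445600 (45.6 kb) none of the 4 marks. The other 3 lay on chromosome 20. They are chr20:62075001-62123000 and chr20:62022801-62068000, named above for their H4K20me3, and chr20:61026401-61072600, where H4K20me3 covered 2.2 kb in WT and 17.0 kb in KO.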

How the data were processed

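ChIP-seq intervals of 10 libraries were used, with 1 per antibody and genotype, and the input library was not used. Reads were aligned with BWA and intervals called with SICER 1.1 on hg19, per the submitters' processing notes. The caller's settings and any control are not given in the sources used. The deposited file gives each interval as chromosome, start and end on a 200-bp grid, with no height or score. A merged list of 92233 regions was not used. Overlaps of at least 1 bp were computed with numpy 2.4.6, scipy 1.17.1 and Python 3.11.15, and the member count with bedtools 2.31.1 was also 6353. Pairs were intervals that overlapped exactly 1 interval in the other genotype. Raised stretches came from a 2-state hidden Markov model on H3K4me3 length in 2-Mb bins (chance of change 0.001, bins under 20 kb ignored, 1 kb added). Counting and the model were tested on simulated data. Named regions were the widest members and those with the most extreme change per mark, without chromosome 8. The members, lists and comparisons were chosen with earlier results of these data known.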

Additional observations from a re-analysis of the deposited data

How the results depend on the processing

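No result changed direction between genotypes under the alternatives run. Of 56 alternative values 25 stayed within counting error (for the number of members, within 1.5 times) and 31 moved beyond it. The number of members lay between 4901 and 6254 in all alternatives. With intervals of at least 2 kb only, H3K4me3 in both genotypes stood at 91.9% of members, H3K36me3 at 65.7% in WT and 71.4% in KO, H4K20me3 at 35.9% in KO, the median H3K4me3 width ratio at 0.903 and the share narrower by 1.5-fold at 9.45%. Outside the raised stretches the values were 94.0% for H3K4me3, 63.9% for H3K36me3 in WT, 12.6% and 30.5% for H4K20me3 in WT and KO, 0.886 and 10.2%. With stretches cut from H3K36me3, an alternative chosen after seeing the data, they were 94.0%, 63.1%, 11.99% and 31.8%, 0.893 and 9.74%. With intervals within 5 kb merged, H3K4me3 stood at 95.7%, H3K36me3 in KO at 68.0%, H4K20me3 at 13.2% in WT and 38.7% in KO, and the ratio at 0.922. Asking a mark to overlap 50% of the shorter interval gave 91.1% for H3K4me3, 41.2% and 45.9% for H3K36me3 in WT and KO, and 9.33% and 32.6% for H4K20me3. Summing all H3K4me3 on a member gave a ratio of 0.905 with 12.1% narrower by 1.5-fold, and a 2-fold threshold 1.43%. Autosomes only, and a 50% overlap of the MINA intervals, moved none of these values beyond counting error. The cause of these shifts was not tested. No paired analysis was possible because each group holds 1 library, which also left no replicate to leave out. Depth is unknown, so the larger H4K20me3 list of KO cannot be told apart from a deeper or better enriched library.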
